A study of Homo sapiens with 4 samples.

Results

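The transcripts described here were the long noncoding RNAs that carry a numbered LINC name on the expression kit used by the study, chosen as every target whose name is LINC followed only by digits. They were 181 of the 20809 targets. RNA was compared between MDA-MB-468/R, a drug-resistant subline, and MDA-MB-468/WT, the wild-type parental line, with 2 libraries per group, and the comparison asks which transcripts differ after long-term chemotherapy exposure. MDA-MB-468 is a human breast cancer cell line of the triple-negative type, that is, without estrogen receptor, progesterone receptor or HER2 amplification. According to the labels, MDA-MB-468/R had 6 months of adriamycin (doxorubicin), taxotere (docetaxel) and cytoxan (cyclophosphamide), and MDA-MB-468/WT had a treatment of none, although the protocol text attached to all 4 samples names the drugs. The methods describe rising doses followed by a drug-free recovery, so the resistant cells were a selected population of 1 line, and although the paper in places calls the resistant cells clones, its methods describe no isolation of single cells. Neither source says whether the 2 libraries of a group came from separate cultures. The p-values given below therefore measure the spread between libraries, which may be technical.

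LINC stands for long intergenic noncoding RNA, and the number is only a running index given to a locus with no known function or relative. Long noncoding RNAs are transcribed and often spliced like messenger RNAs but are not known to be translated. Some act on chromatin near the place where they are made, some bind proteins or small RNAs in the nucleus or cytoplasm, some are hosts of small RNAs, and many have no known role. Most are less abundant than messenger RNAs and are made in few cell types, and loci lose the LINC number once a function, a host role or a small protein is recognised.

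All 181 names were found in RefSeq (GRCh38.p14), 141 as the current symbol and 40 as an older name of a gene that now has another symbol. RefSeq lists 161 of them as lncRNA, 18 as protein coding and 2 as transcribed pseudogenes, so the label noncoding does not hold for every member. LINC00493 is now SMIM26, a small mitochondrial protein, and LINC00085 is now SPACA6, a sperm membrane protein needed for fusion with the egg. Transcripts whose LINC name was kept had at least 1 read in some library in 42.6% of cases (60 of 141), and renamed ones in 67.5% (27 of 40).

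Library depth was 7001518 and 7325314 reads in the resistant libraries against 6836077 and 7981443 in the wild-type libraries, and levels are given in RPM, the reads of a target per 1000000 reads of the library. A single read was worth 0.125 to 0.146 RPM, and a floor of 3 reads, the limit that a count of 0 allows, lay at 0.376 to 0.439 RPM. Intervals and floors cover counting error only. All 10 epithelial and basal markers of the line had reads in every library, with EGFR at 4770 to 5712 RPM. Their summed level, most of it EGFR, was 8318 and 8706 RPM in the resistant libraries and 10247 and 10272 RPM in the wild-type libraries. The markers differed unevenly. KRT5 stood at 684 and 665 RPM in the resistant and 1120 and 1175 RPM in the wild-type libraries. For KRT17 the values were 266 and 236 against 587 and 583 RPM. EPCAM overlapped between the groups, at 786 and 599 against 743 and 723 RPM. The part of these differences in the LINC results was not tested. PTPRC and CD3E (leukocytes), VWF (endothelium) and DCN and PDGFRB (fibroblasts) were at 0 in all 4 libraries, while COL1A1 stood at 10.5 to 17.5 RPM and LYZ and HBB at no more than 0.404 RPM. The receptor genes ESR1 and PGR were at or below 3.23 RPM, and ERBB2, the gene of HER2, stood at 13.4 and 10.5 RPM in the resistant and 9.63 and 6.89 RPM in the wild-type libraries. In RNA from whole cultures, fewer cells that make a transcript and less of it per cell cannot be told apart.

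Most numbered LINC transcripts were at 0. In MDA-MB-468/R, 117 and 115 of the 181 had no read (64.6% and 63.5%), and in MDA-MB-468/WT 115 had none in either library (63.5%). The share at 0 over all targets was 28.8% to 31.0%. The number of LINC transcripts with a read was thus nearly equal in the 4 libraries, at 64, 66, 66 and 66. In all 4 libraries together, 94 were at 0 (51.9%), against 22.5% of all targets, and for these the depth allows a level of up to the floor of each library. Of the 87 transcripts with a read, 50 had one in every library, 21 had reads in a single library, and 17 were known from 1 read in total.

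**Figure D1:**
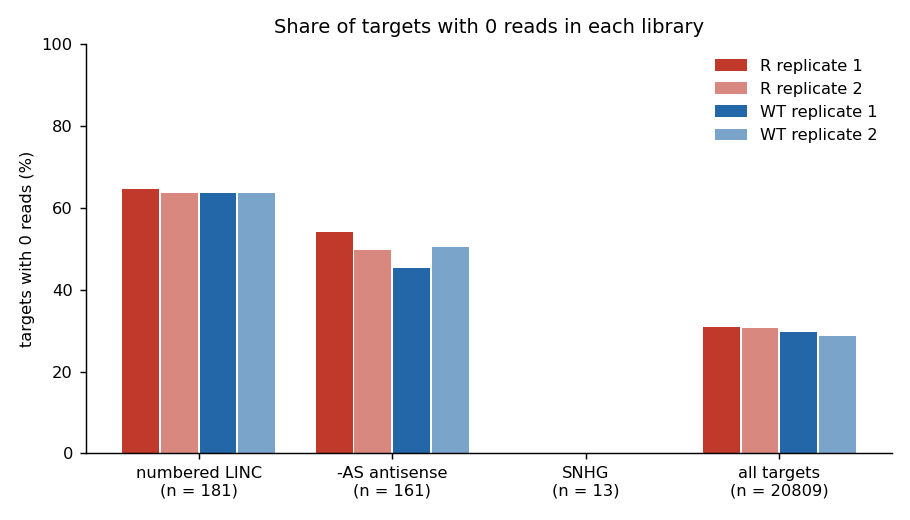
Bars give the percent of targets with 0 reads (y axis) in each of the 4 libraries for the 181 numbered LINC targets, 161 antisense targets named -AS and a number, 13 small nucleolar RNA host genes (SNHG) and all 20809 targets. The LINC bars stand at 63.5% to 64.6% in both groups, above the other sets, and no SNHG target was at 0.

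For other noncoding targets the share at 0 was smaller. Of the antisense transcripts, whose names end in -AS and a number, 57 of 161 (35.4%) were at 0 in all 4 libraries, and of the 13 SNHG transcripts, which carry small nucleolar RNAs in their introns, 0 were. Summed over the 181 targets, LINC transcripts took 0.0477% and 0.0426% of the reads in MDA-MB-468/R and 0.0502% and 0.0492% in MDA-MB-468/WT. The 13 SNHG targets alone took 0.0824% to 0.0955%.

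Where a LINC transcript was seen, its reads were few. The median level of those with a read was 1.14 and 1.02 RPM in the resistant libraries and 2.05 and 2.20 RPM in the wild-type libraries, while the medians over all targets with a read were 17.1 to 18.2 RPM. At least 10 reads were reached by 31 and 30 LINC transcripts in the resistant libraries and by 37 in each wild-type library. WT replicate 1 held the fewest reads of the 4 libraries, and the part of depth in these counts was not tested.

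A few transcripts made up most of the LINC reads. LINC00665, a lncRNA reported as high in several carcinomas, took 25.6% of them, and the 10 most abundant took 76.8%. LINC00665 stood at 144 and 119 RPM in the resistant libraries and at 119 and 106 RPM in MDA-MB-468/WT, so the groups met at 119 RPM. LINC00493 (SMIM26) followed with 67.6 and 62.1 RPM against 89.5 and 85.2 RPM, and LINC00263, now OLMALINC, the oligodendrocyte maturation-associated lncRNA, with 52.8 and 44.3 RPM against 29.1 and 26.5 RPM. Both showed groups that did not overlap, in opposite directions. The next 7 were LINC00674, LINC00338, LINC00630, LINC00641, LINC00673, LINC00265 and LINC00662, with means over the 4 libraries from 24.7 down to 8.42 RPM. LINC00641 was the most even of these, at 20.9 and 21.5 RPM in the resistant and 21.2 and 20.1 RPM in the wild-type libraries. Each target is read from 1 short amplicon, and amplicons differ in yield, so this order is an order of reads and not of molecules.

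**Figure D2:**
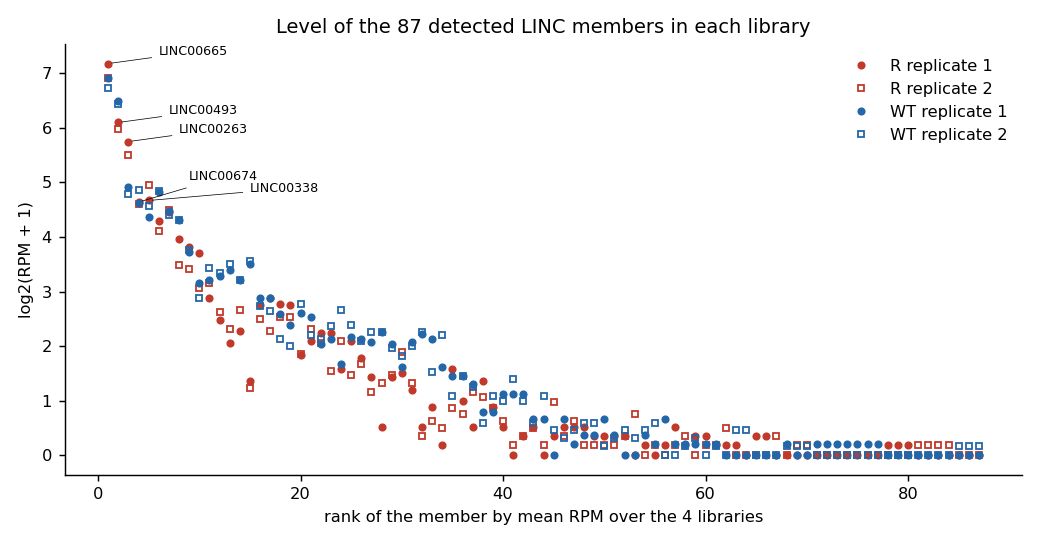
Each point is the level of 1 of the 87 LINC targets with a read in 1 library, as log2(RPM + 1) (y axis), placed by rank of its mean RPM over the 4 libraries (x axis); red is MDA-MB-468/R, blue MDA-MB-468/WT, filled circles replicate 1 and open squares replicate 2. Levels fall from LINC00665 to single reads, and 50 of the 87 lie below the filter for testing.

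Differences between the groups were tested with limma on the deposited log2(RPM + 1) values of those 12118 targets with 10 or more reads in 2 or more libraries, with Benjamini-Hochberg adjustment over all of them. Of the LINC transcripts 37 entered the test (20.4%, against 58.2% of all targets), all of them with mean levels above 1 RPM and 9 above 10 RPM. The remaining 144 were the 94 at 0 and 50 with too few reads. The filter itself favours the group where a transcript is high: LINC00284, LINC00202, LINC00479, LINC00167 and LINC00323 entered only through the wild-type libraries and 0 transcripts only through the resistant ones. The balance of directions among the 37 is therefore a description and was not used as support for a direction of the LINC transcripts.

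The LINC transcripts that passed the adjusted p of 0.05 were mostly lower in MDA-MB-468/R. Lower were LINC00607, LINC00284, LINC00202, LINC00525, LINC00340, LINC00479, LINC00526, LINC00085, LINC00649, LINC00630 and LINC00493, and the only one higher was LINC00263. That is 11 of 37 lower and 1 of 37 higher, where 10.6% and 5.36% of all tested targets passed in these directions. Without LINC00284, LINC00202 and LINC00479, which met the read filter only through the wild-type libraries where they are high, 8 were lower. This restriction also takes LINC00167 and LINC00323 out of the 37. It was not applied to all tested targets, so neither the 8 nor the DEG count under it has a background share here. As DEGs, with a fold of at least 2.5 on the log2(RPM + 1) scale as well, 4 were lower (LINC00607, LINC00284, LINC00202 and LINC00525) and 0 higher, where 2.45% and 0.809% of all tested targets were called. The 0 higher DEGs stayed 0 with unadjusted p and with limma-voom. The 4 lower became 5 with limma-voom, 6 with a pseudocount of 0.25 RPM, 1 with a pseudocount of 4 RPM and 2 without LINC00284 and LINC00202. Of the 11 lower, RefSeq lists LINC00493 and LINC00085 as protein coding and the other 9 as lncRNA. With any 1 library left out, none of the 12 changed direction, but calls were lost, most of all without a wild-type library. Such a fit leaves 1 library in a group and takes the spread of that group from the other. How many calls all tested targets lost was not counted, so the loss is not read as particular to these transcripts.

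**Figure D3:**
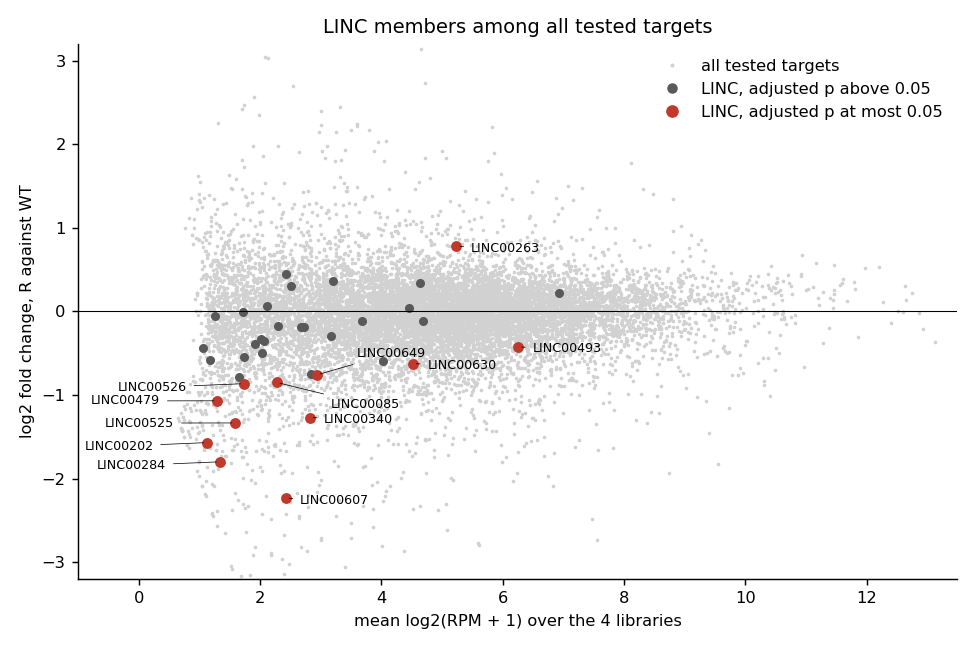
Each point is a tested target, placed by its mean log2(RPM + 1) over the 4 libraries (x axis) and its log2 fold change of resistant against wild-type libraries (y axis); grey dots are all tested targets, dark circles LINC targets with an adjusted p above 0.05, and red circles the 12 at or below it. The y axis ends at 3.2 in both directions and leaves 27 targets outside, none of them LINC, and 11 of the 12 red circles lie below 0.

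Over the 37 tested LINC transcripts the log2 fold change ran from -2.23 to 0.78 with a median of -0.39, and the median of all tested targets was -0.03. It was below 0 for 29 and above 0 for 8. Both resistant libraries lay below both wild-type libraries for 20 (32.2% of all tested targets did) and above them for 3 (26.1%), and for 14 the groups overlapped. The antisense set, whose medians over transcripts with a read were 0.729 to 0.998 RPM, had 36 tested transcripts with a median of -0.11, of which 1 passed, as lower. Of the 11 tested SNHG transcripts 2 passed, both as higher. Neither set was compared with the LINC transcripts by a test.

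LINC00607, a lncRNA studied mainly in endothelial cells, showed the largest decrease on the log2(RPM + 1) scale. Its levels were 1.57 and 1.36 RPM in the resistant libraries and 10.4 and 10.8 RPM in the wild-type libraries, or 1.46 ± 0.145 against 10.6 ± 0.284 RPM (SD, n = 2). The wild-type mean was 7.23 times the resistant mean, and the 2 libraries of each group lay close together beside the gap between groups. By the ratio of mean RPM, LINC00284 (10.5) and LINC00202 (10.4) fell further, on far fewer resistant reads. On the log2(RPM + 1) scale the difference was -2.23 (SE 0.198, limma adjusted p = 0.000571), and with any 1 library left out the difference stayed between -2.29 and -2.17 while the adjusted p reached 0.0604. CDH5, the cadherin of endothelial junctions, moved the same way, at 0 and 0.133 RPM in the resistant and 2.63 and 2.76 RPM in the wild-type libraries. The other endothelial markers, PECAM1 and VWF, were at or under 0.149 RPM in every library. The cultures were of 1 cell line, and a relation between CDH5 and LINC00607 was not tested.

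LINC00284, now NRAD1, is a lncRNA of the aldehyde dehydrogenase pathway that retinoic acid can induce and that has been studied in triple-negative breast cancer. It had 3 and 2 reads in the resistant libraries and 25 and 30 reads in the wild-type libraries, or 0.434 and 0.275 against 3.66 and 3.76 RPM. The resistant libraries were thus at or below the floor, and the ratio of reads, corrected for depth, was 0.0940 with an exact 95% counting interval of 0.0294 to 0.233. The log2 difference was -1.80 (SE 0.229, limma adjusted p = 0.00271), but since LINC00284 entered the test only through the wild-type libraries, that p is given as a description.

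LINC00202, now FAM238C, followed, with 1 and 3 reads in the resistant and 14 and 29 reads in the wild-type libraries (0.141 and 0.404 against 2.05 and 3.63 RPM). The groups did not overlap, but the wild-type libraries differed from each other more than for LINC00607. The read ratio was 0.0962 (exact 95% interval 0.0251 to 0.265), and the log2 difference was -1.57 (SE 0.289, limma adjusted p = 0.0119), with the same limit from the filter as for LINC00284. FAM238C has relatives on chromosome 10, among them FAM238A, which the kit reads as LINC00264. How reads shared by such copies were assigned is not given in the sources used here, so both values are uncertain. LINC00264 had 6 and 6 reads in the resistant libraries and 5 and 9 in the wild-type libraries and was not tested.

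LINC00525 was the last of the DEGs, with 3 and 11 reads in the resistant and 26 and 30 in the wild-type libraries, or 0.965 ± 0.751 against 3.77 ± 0.0234 RPM (SD, n = 2). The resistant libraries disagreed here, and the log2 difference of -1.34 (SE 0.301, limma adjusted p = 0.0246) gave a fold of 2.52, just past the limit of 2.5. LINC00340, now CASC15, a lncRNA of a neuroblastoma susceptibility region beside SOX4, fell just short of that limit. It stood at 3.14 and 3.96 RPM against 9.48 and 10.4 RPM, a log2 difference of -1.27 (SE 0.199, limma adjusted p = 0.00651). The fold was 2.41 on that scale, while by the ratio of mean RPM it was 2.80.

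The remaining decreases were smaller than the fold limit on the log2(RPM + 1) scale, though by the ratio of mean RPM LINC00479 differed 3.76-fold. LINC00479 had 0.853 and 0.548 RPM in the resistant and 3.38 and 1.89 RPM in the wild-type libraries (log2 difference -1.07, limma adjusted p = 0.0424), and LINC00526 had 1.71 and 1.23 against 3.23 and 3.76 RPM (-0.86, 0.0433). Both rest on few reads, with 4 to 12 per resistant library, and LINC00479 entered the test only through the wild-type libraries. LINC00085 (SPACA6) stood at 2.58 and 2.60 against 5.11 and 5.87 RPM (log2 difference -0.85, limma adjusted p = 0.0307), and LINC00649 at 4.58 and 5.19 against 8.78 and 9.13 RPM (-0.76, 0.0330). The locus of LINC00085 also holds MIR99B, MIRLET7E and MIR125A in RefSeq, and a host transcript and its microRNAs were not separated by this assay. For all 4 the resistant libraries lay below the wild-type ones.

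The most abundant decreases were in LINC00630 and LINC00493. LINC00630, on chromosome X, was at 18.7 and 16.3 RPM in the resistant libraries and 27.2 and 27.6 RPM in the wild-type libraries, a log2 difference of -0.62 (SE 0.149, limma adjusted p = 0.0298). LINC00493 was at 64.9 ± 3.87 against 87.4 ± 3.03 RPM (SD, n = 2), a log2 difference of -0.42 (SE 0.113, limma adjusted p = 0.0437). With 455 to 680 reads per library, LINC00493 was the best counted of the decreases and also the smallest, and its adjusted p was 0.0527 when RLE scaling was applied.

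LINC00263 (OLMALINC) was the only LINC transcript higher in MDA-MB-468/R at an adjusted p of at most 0.05. It stood at 48.5 ± 6.05 RPM in the resistant libraries and 27.8 ± 1.83 RPM in the wild-type libraries (SD, n = 2), with 324 and 370 reads in the resistant and 199 and 211 in the wild-type libraries. The lowest resistant library, at 44.3 RPM, lay well above the highest wild-type one, at 29.1 RPM. The log2 difference was 0.78 (SE 0.144, limma adjusted p = 0.0120), and it stayed between 0.66 and 0.90 when any library was left out, with an adjusted p of up to 0.277.

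**Figure D4:**
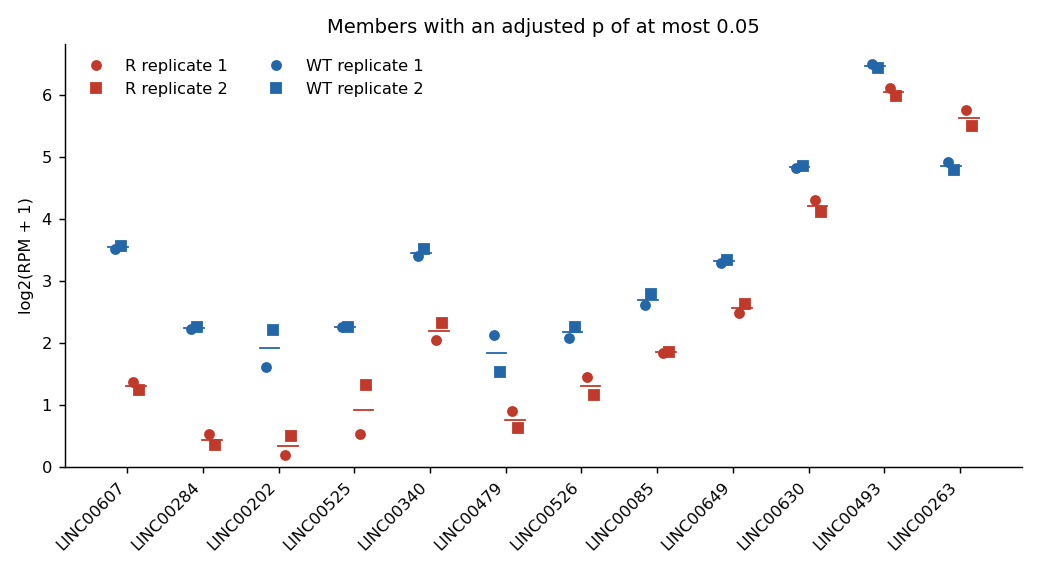
Points give the level in each library as log2(RPM + 1) (y axis) of the 12 LINC targets with an adjusted p of at most 0.05, ordered by log2 fold change; red is MDA-MB-468/R, blue MDA-MB-468/WT, circles replicate 1, squares replicate 2, and short lines the group means. Blue lies above red in 11 targets and below it in LINC00263, and the 2 points of a group lie farthest apart for LINC00525 in red and for LINC00202 and LINC00479 in blue.

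The promoter sequences of the strongest changes are shown, for the 4 largest decreases with an entry and for the increase, because these transcripts carry the comparison. Each runs 5′ to 3′ on the strand of the gene, from 250 bases before to 50 bases after the RefSeq start, and comes from RefSeq (GRCh38.p14). The table held an entry for 135 of the 181 targets and for 10 of the 12 that passed, without LINC00525 and LINC00649. The positions are chr2:215843487-215843786 (minus strand) for LINC00607, chr13:44022085-44022384 (plus) for LINC00284, chr10:26941952-26942251 (minus) for LINC00202, chr6:21666163-21666462 (plus) for LINC00340 and chr10:100373326-100373625 (plus) for LINC00263. Capitals mark matches, on either strand, to the CCAAT box (CCAAT), the GC box (GGGCGG) and the AP-1 motif (TGANTCA). The TATA box (TATAAA) and the STAT motif (TTCNNNGAA) were searched as well and had no match in these 5, and no base belonged to more than 1 match.
LINC00607: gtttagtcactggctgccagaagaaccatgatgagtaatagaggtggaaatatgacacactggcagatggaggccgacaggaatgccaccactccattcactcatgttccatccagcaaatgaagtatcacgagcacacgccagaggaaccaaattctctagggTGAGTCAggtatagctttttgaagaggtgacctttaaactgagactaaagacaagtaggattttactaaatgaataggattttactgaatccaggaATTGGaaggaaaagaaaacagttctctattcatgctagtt
LINC00284 (NRAD1): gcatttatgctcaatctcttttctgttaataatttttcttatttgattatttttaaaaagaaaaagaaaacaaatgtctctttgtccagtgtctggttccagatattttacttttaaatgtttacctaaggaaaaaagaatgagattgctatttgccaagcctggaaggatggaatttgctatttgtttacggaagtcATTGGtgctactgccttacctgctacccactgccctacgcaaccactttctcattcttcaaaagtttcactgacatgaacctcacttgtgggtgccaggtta
LINC00202 (FAM238C): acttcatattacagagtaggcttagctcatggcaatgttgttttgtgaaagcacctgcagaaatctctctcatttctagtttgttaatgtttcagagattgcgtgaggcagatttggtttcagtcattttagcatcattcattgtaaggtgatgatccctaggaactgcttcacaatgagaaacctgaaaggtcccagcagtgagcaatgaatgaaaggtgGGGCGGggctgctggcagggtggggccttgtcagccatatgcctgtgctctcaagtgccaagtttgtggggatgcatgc
LINC00340 (CASC15): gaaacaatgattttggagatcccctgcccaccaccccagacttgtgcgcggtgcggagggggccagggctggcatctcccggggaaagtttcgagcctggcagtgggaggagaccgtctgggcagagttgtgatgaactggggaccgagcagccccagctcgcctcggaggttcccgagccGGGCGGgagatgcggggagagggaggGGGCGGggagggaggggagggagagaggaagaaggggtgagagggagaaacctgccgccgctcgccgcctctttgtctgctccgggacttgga
LINC00263 (OLMALINC): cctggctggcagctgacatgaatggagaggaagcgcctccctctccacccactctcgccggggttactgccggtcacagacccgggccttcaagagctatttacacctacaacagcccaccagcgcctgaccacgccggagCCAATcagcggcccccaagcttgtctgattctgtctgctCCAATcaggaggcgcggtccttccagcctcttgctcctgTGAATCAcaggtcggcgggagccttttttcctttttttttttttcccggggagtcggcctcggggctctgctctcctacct
These 5 starts differ in base composition. LINC00607, LINC00284 and LINC00202 had a GC content of 42.0%, 36.0% and 46.3% with 3, 2 and 2 CpG pairs, while LINC00340 and LINC00263 had 66.7% and 60% with 19 and 16. The median of all 35116 promoters of this length was 58.7% with 14 CpG pairs. A CCAAT box was held by 34.6% of all promoters, a GC box by 44.95%, an AP-1 motif by 7.71%, a TATA box by 11.5% and a STAT motif by 7.66%. A match describes the letters in the window and shows no binding.

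Promoter composition also varied with detection among the 135 LINC targets with an entry. The 31 tested targets had a median GC content of 55.3% and 12 CpG pairs, the 34 with reads but too few for the test 53.7% and 6.5, and the 70 at 0 in all 4 libraries 49.7% and 5. The GC box was found in 15 of the 31, 7 of the 34 and 19 of the 70. These are descriptions of the reference sequence, and the groups were not compared by a test.

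Transcripts present in only 1 group were few and rested on 1 to 3 reads per library. Counting a transcript as present in a group when both of its libraries had a read and the other group had none, LINC00514, with 1 and 3 reads, was present only in MDA-MB-468/R, and LINC00307, with 1 and 1 reads, only in MDA-MB-468/WT. That is 1 of 181 in each direction, against 0.654% of all targets present only in MDA-MB-468/R and 1.47% only in MDA-MB-468/WT. When at least 3 reads were asked of both libraries, 0 LINC transcripts were left in either direction, where 0.0529% and 0.433% of all targets were. When a read in either library was enough, 11 were seen only in MDA-MB-468/R and 12 only in MDA-MB-468/WT, none with more than 4 reads in total. At this depth no LINC transcript could therefore be shown to be present in 1 group and absent from the other.

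Some transcripts came close to that pattern, and they were chosen for mention after their values were seen. LINC00346, now PRECSIT, had 0 and 1 reads in the resistant libraries and 8 and 13 reads in the wild-type libraries, a depth-corrected ratio of 0.0493 (exact 95% interval 0.00119 to 0.306). LINC00460 had 0 and 1 against 4 and 9 reads, a ratio of 0.0796 (0.00187 to 0.530), and LINC00518 had 2 and 2 against 8 and 8, a ratio of 0.259 (0.0629 to 0.802). None of these met the filter. All 3 passed the adjusted p when no filter was used, but they were picked by the same values. That pass and the intervals are therefore descriptions and no support for a difference. In the other direction, LINC00478, now MIR99AHG, had 11 and 8 reads in the resistant libraries and 5 and 4 in the wild-type libraries and was not tested.

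Groups of LINC transcripts written down from general knowledge had few tested members. Of 16 names often written about in cancer, 14 were on the kit, 10 had a read and 5 were tested. Of the 5, 0 passed, with a median log2 difference of -0.30. The list is incomplete: LINC00284 and LINC00340, described above in cancer settings, were not on it and passed as lower, LINC00284 with the filter limit given above. Beside the 10.6% lower and 5.36% higher over all tested targets, 0 of 5 says nothing about the group. The nearest to passing was LINC00152, now CYTOR, a regulator of the cytoskeleton, at 3.86 and 5.32 RPM in the resistant libraries and 8.32 and 8.25 RPM in the wild-type libraries (log2 difference -0.74, limma adjusted p = 0.0516). Its groups did not overlap, and since MIR4435-2HG is a near copy of it, the value is uncertain. With a pseudocount of 4 RPM its adjusted p was 0.0433. LINC00673 followed, at 14.7 and 10.2 RPM against 18.97 RPM in each wild-type library (-0.59, adjusted p = 0.0872). Their unadjusted limma p of 0.00839 and 0.0190 were the only 2 of the 5 under 0.05, and limma-voom on recovered reads also passed 0 of the 5. LINC00467, LINC00665 and LINC00472 had differences of -0.30, 0.22 and -0.05, with limma adjusted p of 0.345, 0.294 and 0.926.

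Of 6 names since found to encode a small protein, 3 were on the kit, and LINC00493 was the only one of these tested. The list is short: of the 18 LINC targets that RefSeq lists as protein coding, 5 were tested. Of these 2 passed as lower and 0 as higher, beside 10.6% and 5.36% of all tested targets. Of 4 hosts of small RNAs 3 were on the kit and had a read. This list is incomplete. LINC00669, now MIR924HG, was not on it and was lower without passing (log2 difference -0.785, limma adjusted p = 0.0514). LINC00085, whose locus holds the microRNAs named above, was not on it and passed as lower (-0.85, limma adjusted p = 0.0307). LINC00461, now MIR9-2HG, and LINC00599, now MIR124-1HG, were not on it either and had no read in any library. Of the listed hosts, LINC00338, now SNHG20, was the only one tested. It stood at 24.5 and 29.9 RPM in the resistant libraries and 19.7 and 22.8 RPM in the wild-type libraries. Its log2 difference of 0.34 did not pass (limma adjusted p = 0.206). Its groups did not overlap, though the gap between them was smaller than the spread within MDA-MB-468/R.

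Besides LINC00263 and LINC00338, the largest positive differences belonged to LINC00515 (0.45), LINC00662 (0.36) and LINC00174 (0.30). None passed, with limma adjusted p of 0.230, 0.364 and 0.434. LINC00515 had 40 and 35 reads in the resistant and 29 and 24 in the wild-type libraries, and its RPM values did not overlap between the groups, while those of LINC00662 and LINC00174 did. Among abundant transcripts with no call, LINC00674, LINC00641 and LINC00265 differed by -0.11, 0.03 and -0.12. For 1 transcript the kit holds a further target of the same RefSeq gene, SYNE3: LINC00341 differed by -0.39 and the SYNE3 target by -0.33, and neither passed.

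The nearest tested coding genes on either side of the 12 transcripts, by position in RefSeq, gave 24 flanking targets. Untested and overlapping coding genes were passed over, so a gene named as beside a transcript need not be its closest coding gene. Of the 24, 3 were lower and 1 was higher in MDA-MB-468/R. Over all tested targets 10.6% were lower and 5.36% higher, so these counts are near the background and nothing is read from them. LINC00607 lies beside FN1, the gene of fibronectin, which stood at 5.15 and 8.06 RPM in the resistant libraries and 34.3 and 35.5 RPM in the wild-type libraries (log2 difference -2.27, limma adjusted p = 0.000704). The difference of FN1 was close to that of LINC00607, and MREG, on the other side, differed by 0.20 and did not pass. LINC00263 lies beside SCD, the stearoyl-CoA desaturase that makes monounsaturated fatty acids, which was higher in the resistant libraries too, going from 198 and 184 RPM in MDA-MB-468/WT to 567 and 497 RPM (1.47, limma adjusted p = 0.000280). NDUFB8, on the other side, differed by -0.05.

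The remaining 2 flanks that passed were lower. TMPRSS2, a membrane serine protease beside LINC00479, differed by -0.52 (limma adjusted p = 0.0177), and TCEAL8, beside LINC00630, by -1.53 (limma adjusted p = 0.00959). For the other 8 transcripts neither flank passed. Among them, LINC00284 had the tested flanks LACC1 (-0.44) and TSC22D1 (-0.30), LINC00202 had ABI1 (0.01) and ANKRD26 (-0.01), and LINC00340 had SOX4 (-0.47) and DCDC2 (0.11). Position is given as a description, and no relation between neighbours was tested. Of the 12, 5 overlap another RefSeq gene in position (LINC00607, LINC00340, LINC00085, LINC00649 and LINC00630). LINC00630 overlaps 12 such genes, among them MTCO1P19 and MTND1P32. The library kit keeps strand, but the strands of the overlapping genes were not compared, and their part in these values was not tested.

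**Figure D5:**
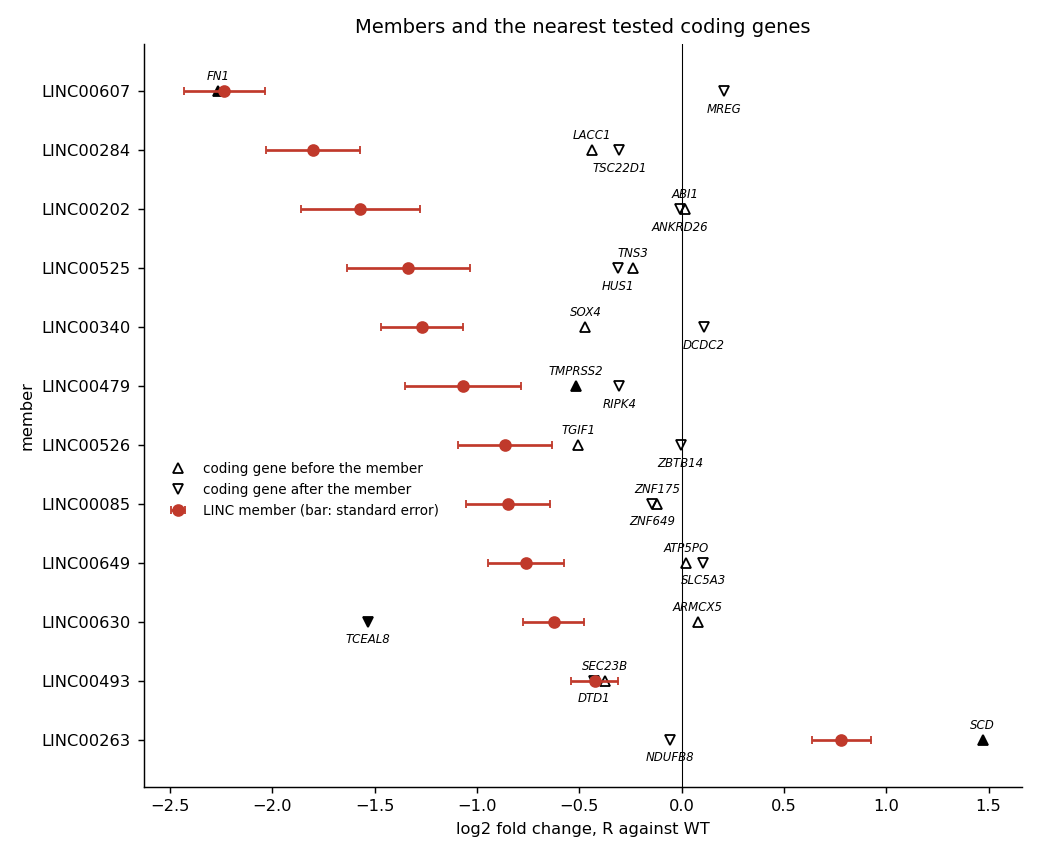
Red circles give the log2 fold change of resistant against wild-type libraries (x axis) of the 12 LINC targets with an adjusted p of at most 0.05 (y axis), with bars for the standard error, and triangles the nearest tested coding gene before (upward) and after (downward) each on the chromosome. Filled triangles have an adjusted p of at most 0.05, and these are FN1, TMPRSS2, TCEAL8 and SCD, which is 4 of 24 flanks.

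By chromosome, LINC targets were most frequent on chromosome 21 with 23, chromosome 14 with 18 and chromosome 13 with 16. On chromosome 21, 4 were tested and 2 passed as lower (LINC00479 and LINC00649), where 31.5% of the 111 tested targets of all kinds on that chromosome passed as lower, with a median log2 difference of -0.37. On chromosome X the only tested LINC transcript, LINC00630, was lower, as were 36.6% of the 380 tested targets there, with a median of -0.45. These chromosome shares lie above the 10.6% over all targets, and their part in the LINC results was not tested. LINC targets of chromosome 14 had 2 tested and 0 passing.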

How the data were processed

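The authors made strand-specific libraries of total RNA using the kit Ion AmpliSeq Transcriptome, with 1 short amplicon per target, and aligned them with the Torrent Mapping Alignment Program. In the submitters' processing notes edgeR, bedtools and Bowtie2 are named with no version, and the genome build is not given in the sources used here. The deposited values are log2(RPM + 1), rounded to 2 decimals by the authors. Undoing the log gave totals of 999854 to 1000057 RPM per library, and 100% of values up to 20 reads were whole reads within 0.1, which gave the depth. Because the values are log2 and not counts, limma 3.58.1 (R 4.3.3) was used (empirical Bayes with a mean trend, no covariates), over 12118 targets, and the script was first tested on simulated data. Read ratios used exact intervals from scipy 1.17.1. With 2 libraries per group an exact permutation test of a single value cannot give a two-sided p under 0.333, so none was run.

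The members, the lists and the tests were chosen with earlier results of these data known. Transcripts were named if they were DEGs, had an adjusted p of at most 0.05, were present in 1 group with at least 3 reads per library, were among the 10 with the highest mean RPM or the 5 with the largest fold change in each direction, or were tested members of the fixed lists. Names, neighbours and promoters came from RefSeq, and no gene coordinates of the authors' build were used.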

Additional observations from a re-analysis of the deposited data

How the results depend on the processing

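The 4 DEGs (all lower in MDA-MB-468/R) became 1 with a pseudocount of 4 RPM, which shrinks folds of low transcripts. They became 2 without the transcripts that met the read filter through 1 group only (chosen after seeing the data). The 4 DEGs, the 11 transcripts lower at the adjusted p and the 1 higher lost calls with a library left out, most of all without a wild-type library. That is a fit with fewer samples in which the lone library of a group is taken to vary like the other group. All other settings kept these counts within 1.5 times: RLE scaling gave 10 lower, limma-voom on recovered reads 9, no filter 13, either other pseudocount 11, and leaving out targets that RefSeq lists as protein coding, chosen after seeing the data, 9. Without those that met the filter through 1 group only, 8 were lower. Among the 12, LINC00649 lost the call without the filter, LINC00479 with 4 RPM and with voom, LINC00526 with voom and LINC00493 with RLE scaling, and none changed direction. With the replicate block, 9 were lower and 1 was higher, and LINC00493 and LINC00526 lost the call (adjusted p 0.0794 and 0.0667). Deviations of same-numbered libraries from their group means had a correlation of 0.00868 over the 12118 tested targets. With 2 libraries per group, the deviations of replicate 2 mirror those of replicate 1, so this is 1 value. It gives no sign of a shift shared by replicate number, and any pairing of the samples remains unknown. With a library left out, differences near 0 reversed in LINC00265 (-0.32 to 0.08, above 0 without R replicate 2), LINC00472 (-0.415 to 0.305, above 0 without R replicate 2 and, at 0.13, without WT replicate 1) and LINC00674 (-0.235 to 0.005, above 0 without WT replicate 2).

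Asking for at least 10 reads left 31, 30, 37 and 37 detected transcripts in R replicates 1 and 2 and WT replicates 1 and 2. Transcripts only in MDA-MB-468/R numbered 0 at 3 reads in both libraries, 11 at 1 read in either, and 3 to 6 with a library left out, and those only in MDA-MB-468/WT 0, 12 and 3 to 8. With 144 of the 181 below the read filter, 94 of them at 0 in all 4 libraries, most of this set could not be tested.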
